A study of Mus musculus with 2 samples.

Results

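The mitochondrial ribosomal protein genes were taken as all symbols of the deposited transcript table that begin with Mrpl or Mrps followed by a number, with pseudogenes left out. There were 78 such genes among 45777 gene symbols, and their estimated counts were summed over 202 listed transcripts. All 78 passed the count filter, which asked for at least 10 counts in at least 1 library, and the lowest count of any of them was 143. The genes were read in liver from C57BL/6 mice on a high-fat diet (HFD), which began at 7 weeks of age and lasted 18 weeks. After 13 weeks of diet, both groups had received an adeno-associated virus by retro-orbital injection, one encoding GFP (AAV-GFP) and the other the long noncoding RNA Wee1-AS (AAV-Wee1-AS). The virus had the AAV9 serotype and a CMV promoter, which is not restricted to hepatocytes, and Wee1-AS itself was not analysed here. The comparison addresses how transcript levels in the liver differed when Wee1-AS was overexpressed. The estimated counts summed to 55466182 with AAV-GFP and to 48079335 with AAV-Wee1-AS. Each group had 1 library, so no difference below has a replicate check and no p-value is given. Intervals are 95% Clopper-Pearson intervals of the ratio of 2 counts. They treat the estimated counts as tallies of reads, which they are not. They cover counting error only and leave out error in assigning reads to transcripts.

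Mitochondria hold their own ribosome, which translates the few messenger RNAs of the mitochondrial genome into core subunits of the respiratory chain and ATP synthase. Its ribosomal RNAs are encoded in mitochondrial DNA, while its proteins are encoded in the nucleus, made in the cytosol and imported. Some of these proteins descend from those of the bacterial ribosome, and others were added later in evolution. Liver is rich in mitochondria, and inherited defects of several of these proteins affect it together with heart and brain.

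Most of the genes were slightly lower in the AAV-Wee1-AS library. The log2 ratio (AAV-Wee1-AS over AAV-GFP) had a median of -0.31, with 58 genes below 0 and 20 above it, while the median of the 15857 genes that passed the filter was -0.02. No gene of the family was more than 2-fold lower, a limit that 8.71% of all genes passed. Mrpl1, Mrpl47 and Mrpl50 were more than 2-fold higher, which is 3.85% of the family against 22.2% of all genes. The counting interval lay wholly below 0 for 50 genes (64.1%, against 38% of all genes) and wholly above 0 for 14 (17.9%, against 39.1%). Without Mrpl1, Mrpl47 and Mrpl50 the median was -0.32. The distance between the family's median and that of all genes was -0.30 under each scaling tried and 0.01 once trends with base composition and length, described below, were removed (-0.13 with the longest transcript of each gene in place of the most abundant).

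**Figure D1:**
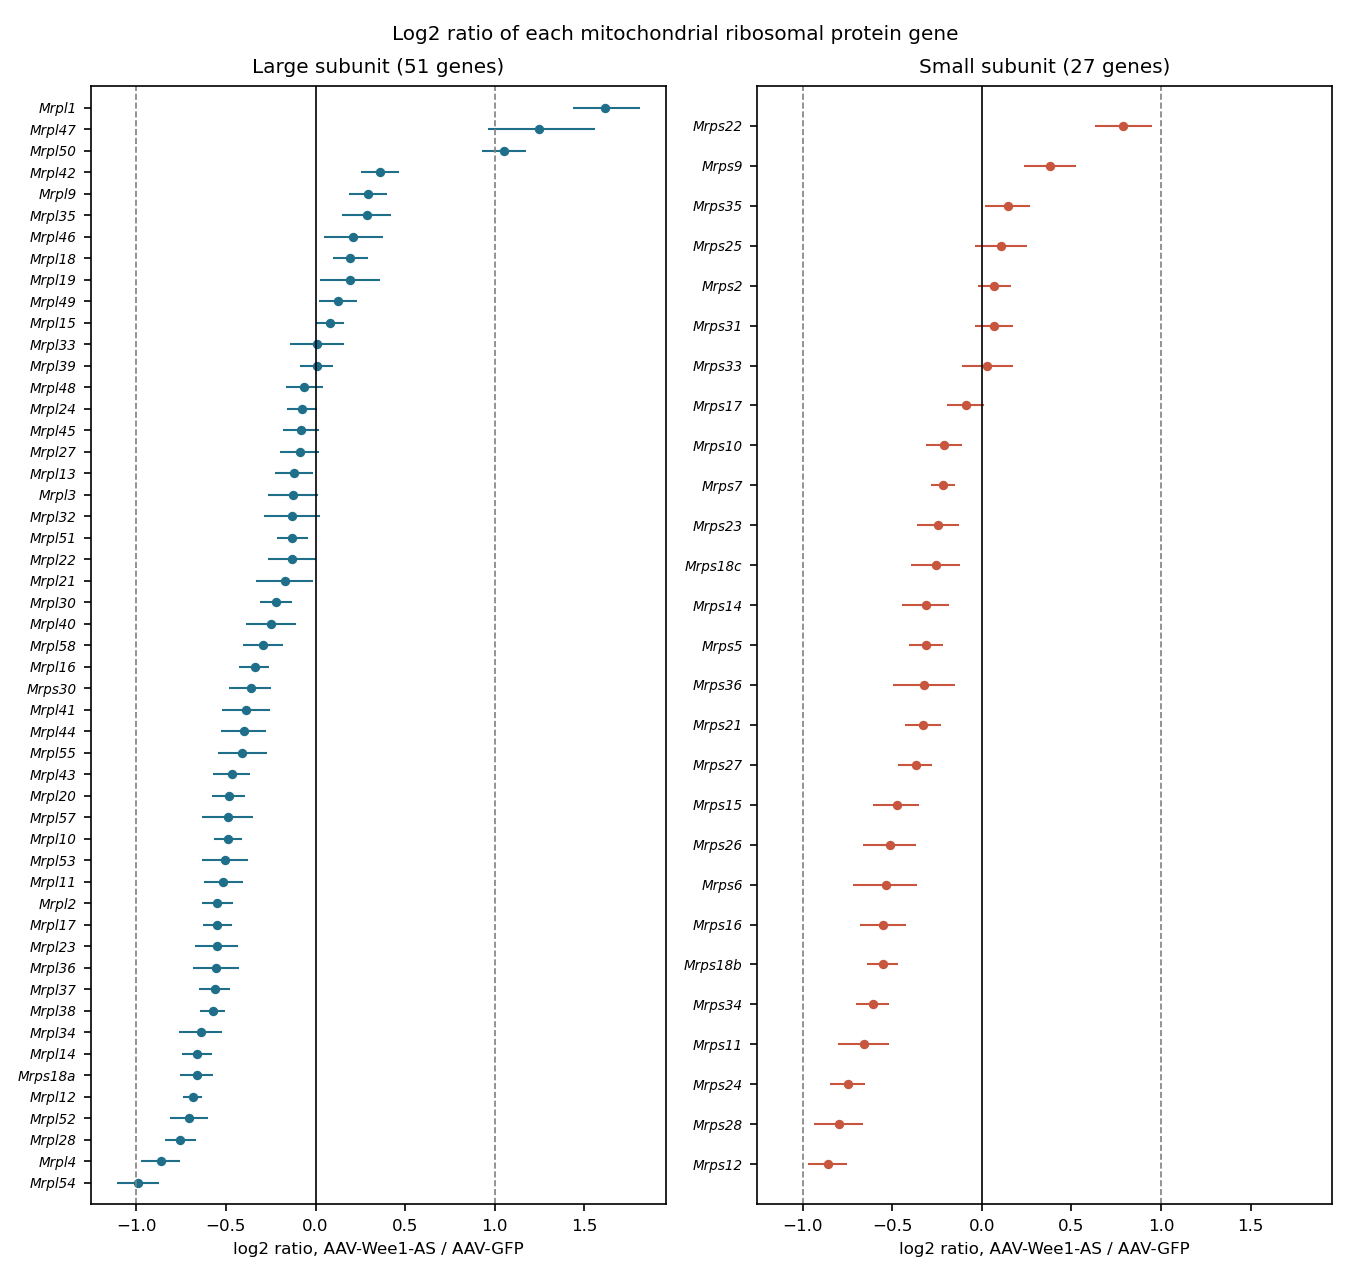
Log2 ratio (AAV-Wee1-AS over AAV-GFP, horizontal axis) for each of the 78 genes, ordered by ratio, for the large subunit (51 genes) and the small subunit (27 genes). Points are ratios of scaled counts, bars are 95% counting intervals, and dashed lines mark 2-fold. The range runs from -0.99 for Mrpl54 to 1.62 for Mrpl1.

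The log2 ratios of the family spread less than those of all genes. The standard deviation of the log2 ratio across genes was 0.46 for the family and 1.12 for all genes. Low counts may widen the second value. For that reason, 7471 genes within the family's range of TPM (a level scaled to transcript length and to the library) were also taken. Their standard deviation was 0.87, their median was -0.16, and 15.5% were more than 2-fold higher and 4.94% more than 2-fold lower. A log2 ratio within 0.5 of 0 was found for 62.8% of the family and 37.7% of all genes. Once the GC and length trends described below were removed, the standard deviation was 0.52 for the family and 0.73 for all genes. It was 0.55 for the genes in the family's TPM range. Most of the contrast with the last was thus gone, as their value fell from 0.87 while that of the family rose from 0.46. Before that step, too, the narrow band was not particular to the family. Its interquartile range was -0.55 to -0.01, wider than the -0.71 to -0.28 of the 79 genes for cytosolic ribosomal proteins and the -0.72 to -0.33 of the 74 nuclear genes for oxidative phosphorylation subunits.

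On the TPM scale, the family spanned levels from 2.98 (Mrpl1) to 273.5 (Mrpl12) with AAV-GFP and from 4.19 (Mrpl19) to 167.0 (Mrpl12) with AAV-Wee1-AS. The median TPM was 42.8 with AAV-GFP and 33.1 with AAV-Wee1-AS, and 58 genes had the lower TPM with AAV-Wee1-AS. Summed over the 78 genes, TPM was 4046 with AAV-GFP and 3079 with AAV-Wee1-AS, and the family took 0.259% and 0.200% of the estimated counts. The range also closed. The 90th percentile of TPM was 6.52 times the 10th with AAV-GFP and 4.79 times with AAV-Wee1-AS. The order of the genes changed little, with a Spearman coefficient of 0.93 across the 78 genes between the libraries, and 6 genes were among the 10 highest in both.

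Mrpl12, the stalk protein of the large subunit that also binds the mitochondrial RNA polymerase, had the highest TPM in both libraries. It had 8838 counts with AAV-GFP and 4574 with AAV-Wee1-AS, a log2 ratio of -0.69 (interval -0.74 to -0.63). Next by mean TPM came Mrpl52, with a TPM of 164.0 and 98.8, and Mrpl14, with 152.0 and 93.4. Mrps21 followed with 129.6 and 101.4. Mrpl30 had 100.7 and 81.7. All 5 of these abundant genes had the lower TPM in the AAV-Wee1-AS library. At the other end, Mrps25 had a TPM of 3.99 and 4.22, and Mrpl19 had 3.73 and 4.19. Mrpl1, Mrpl35 and Mrpl47 completed the lowest 5, and each of these 5 had the higher TPM with AAV-Wee1-AS. Across the family, the log2 ratio was lower at higher mean TPM (Spearman coefficient -0.51 over 78 genes, which share 2 libraries).

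**Figure D2:**
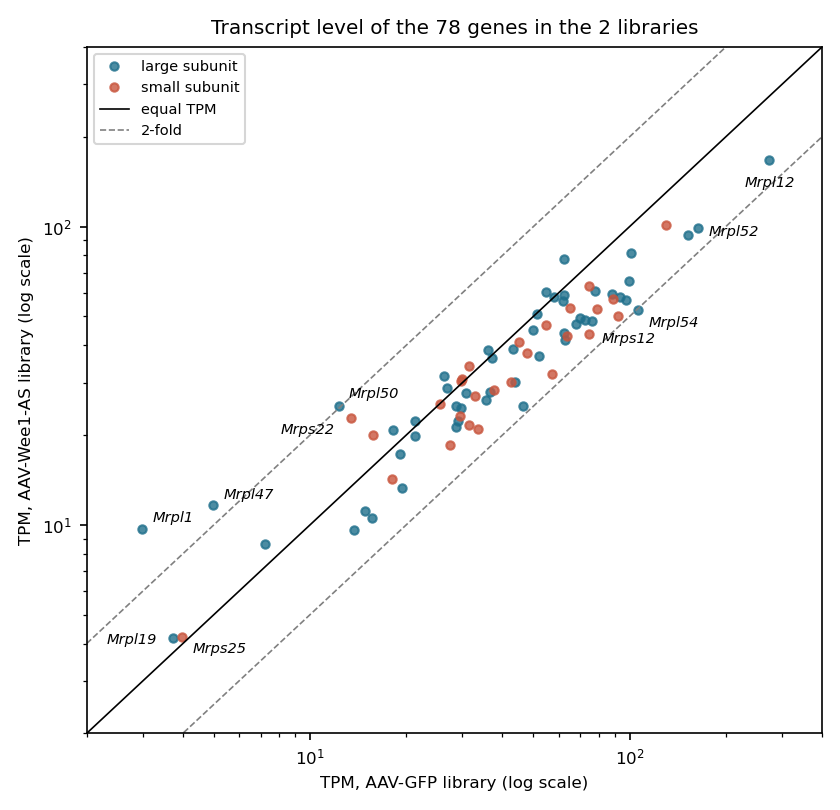
TPM of each of the 78 genes in the AAV-GFP library (horizontal, log scale) and in the AAV-Wee1-AS library (vertical, log scale), with the line of equal TPM and dashed lines at 2-fold. Of the 78 points, 58 lie below the line of equal TPM, and the points above it gather at low TPM.

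The gene with the highest ratio was Mrpl1 (chr5:96209498-96266727, mm10), which encodes the protein of the mobile L1 stalk beside the exit site for spent transfer RNA. It had 334 counts with AAV-GFP and 856 with AAV-Wee1-AS, a log2 ratio of 1.62 (1.44 to 1.81). Mrpl47 (chr3:32727497-32736755), a large subunit protein near the exit of the peptide tunnel, had 143 and 285 counts, a log2 ratio of 1.25 (0.96 to 1.56). Mrpl50 (chr4:49512597-49521083), a large subunit protein with no bacterial counterpart, had 851 and 1469 counts, a log2 ratio of 1.05 (0.93 to 1.17). Of these 3, only Mrpl1 had an interval wholly past 2-fold. Just inside the limit was Mrps22 (chr9:98588730-98601679), a small subunit protein in which inherited defects cause mitochondrial disease, with 540 and 778 counts and a log2 ratio of 0.79 (0.63 to 0.95). After a gap, Mrps9 followed at 0.38 (0.23 to 0.53), Mrpl42 at 0.36 (0.25 to 0.47), Mrpl9 at 0.29 (0.18 to 0.40) and Mrpl35 at 0.28 (0.15 to 0.42). Mrpl47 lies over parts of Actl6a and Ndufb5 in the annotation. Ndufb5, a complex I subunit, had 4933 and 2968 counts, a log2 ratio of -0.47. Whether the counting used strand is not given in the sources used here, so the small count of Mrpl47 is uncertain. In all, 26 of the 78 genes overlap a coding gene in GENCODE and share this doubt, among them Mrpl18 with Tcp1 (0.95; 3637 and 5872 counts), Mrps25 with Nr2c2 (2.57; 145 and 728), Mrpl19 with Gcfc2 (2.40; 20 and 96) and Mrpl46 with Mrps11 (-0.66).

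At the low end, Mrpl54 (chr10:81264722-81266926) had 2056 counts with AAV-GFP and 862 with AAV-Wee1-AS, a log2 ratio of -0.99 (-1.11 to -0.87). It stood just inside the 2-fold limit, which it passed with library totals or DESeq2 size factors in place of TMM. Mrpl4 (chr9:21001252-21008839), the counterpart of bacterial L4 in the wall of the peptide tunnel, had 2181 and 998 counts, a log2 ratio of -0.86 (-0.97 to -0.76). Mrps12 (chr7:28739641-28741821), the counterpart of bacterial S12 at the decoding center, had 2227 and 1021 counts, a log2 ratio of -0.86 (-0.97 to -0.75). Each of these 3 genes thus had a count in the AAV-GFP library that was more than 2 times that in the AAV-Wee1-AS library, part of which is the difference in depth. Mrps28 followed at -0.80 (1357 and 649 counts), Mrpl28 at -0.75 (3409 and 1683), Mrps24 at -0.75 (2487 and 1232), Mrpl52 at -0.70 (2226 and 1137) and Mrpl12 at -0.69.

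The promoters of 2 of the highest and 2 of the lowest genes are shown to set them side by side. Each is the stretch of 250 bases upstream of the annotated start, 5′ to 3′ on the strand of the gene, from RefSeq on GRCm38.p6. They lie at chr5:96209865-96210114 (+) for Mrpl1, chr3:32736756-32737005 (-) for Mrpl47, chr7:28741822-28742071 (-) for Mrps12 and chr11:5707702-5707951 (-) for Mrps24. For Mrpl1 the start is that of its leading transcript, which lies inside the span of all its transcripts given above. Capitals mark matches on either strand to CCGGAAG (ETS family, which includes GABPA), GCGCATGC (a core of the NRF1 site), AANATGGC (YY1), GGGCGG (SP1) or CCAAT (NFY), factors known to bind promoters of nuclear genes for mitochondrial proteins or of housekeeping genes.
Mrpl1: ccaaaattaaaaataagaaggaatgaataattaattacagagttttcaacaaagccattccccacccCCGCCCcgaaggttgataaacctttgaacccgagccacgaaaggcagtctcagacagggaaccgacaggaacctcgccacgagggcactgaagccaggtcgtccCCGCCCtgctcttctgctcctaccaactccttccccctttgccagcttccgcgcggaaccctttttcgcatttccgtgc
Mrpl47: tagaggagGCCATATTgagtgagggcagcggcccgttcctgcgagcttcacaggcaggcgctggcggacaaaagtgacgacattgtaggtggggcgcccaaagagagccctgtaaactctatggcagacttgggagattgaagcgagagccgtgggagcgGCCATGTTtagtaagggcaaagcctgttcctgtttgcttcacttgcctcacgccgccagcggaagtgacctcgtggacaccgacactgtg
Mrps12: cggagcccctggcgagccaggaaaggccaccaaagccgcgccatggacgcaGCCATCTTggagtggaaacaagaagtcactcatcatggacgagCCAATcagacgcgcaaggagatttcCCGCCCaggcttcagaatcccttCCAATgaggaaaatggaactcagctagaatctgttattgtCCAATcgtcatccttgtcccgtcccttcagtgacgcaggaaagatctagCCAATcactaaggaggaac
Mrps24: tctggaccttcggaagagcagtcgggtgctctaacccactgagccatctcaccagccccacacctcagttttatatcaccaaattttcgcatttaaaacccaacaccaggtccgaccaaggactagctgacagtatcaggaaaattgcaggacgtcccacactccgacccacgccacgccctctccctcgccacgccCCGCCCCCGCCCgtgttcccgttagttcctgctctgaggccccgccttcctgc

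Mrpl1 had 2 SP1 matches upstream of the start and no other. Mrpl47 had 2 YY1 matches upstream of the start and another 13 bases past it, outside the stretch shown. Mrps12 had 4 NFY matches, 1 SP1 match and 1 YY1 match upstream, and 1 ETS match that begins at the start itself. Mrps24 had 2 SP1 matches side by side and a YY1 match 36 bases past the start. A match is a run of letters and does not show that a factor binds there.

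Promoter windows of 300 bases (250 before and 50 after the start) were matched by symbol for 69 of the 78 genes, in 75 windows. The share of genes with a match was compared with that of all 27025 genes with a window and of the 11566 among them that passed the count filter. The ETS letters occurred in 26 of the 69 genes (37.7%), in 9.93% of all genes and in 18.2% of those past the filter. The YY1 letters occurred in 21 (30.4%, against 6.96% and 9.38%). The NRF1 letters occurred in 8 (11.6%, against 3.05% and 5.31%). For SP1, 49.3% of the family had a match, against 38.2% and 63.8%. NFY letters were found in 39.1% of the family, 41.1% of all genes and 42.8% of those past the filter. The log2 ratio hardly differed with the ETS letters, with a median of -0.31 in the 26 genes with a match and -0.31 in the other 43. It was -0.22 with and -0.32 without the YY1 letters, and -0.13 in the 8 genes with the NRF1 letters against -0.31 in the other 61. The order was the other way for SP1, with -0.32 with a match and -0.24 without, and for NFY, with -0.36 and -0.27. With the trends with GC content and length removed, the order turned for NRF1 (-0.12 with a match and -0.01 without) and for SP1 (0.02 and -0.06). For every set of letters, genes with a match had the higher median TPM in the AAV-GFP library. The medians with and without a match were 50.6 and 33.7 for ETS, 43.9 and 36.7 for YY1, and 43.9 and 36.9 for NFY. They were 39.9 and 37.6 for SP1, and 39.6 and 37.6 for NRF1. No test was made on these shares and medians.

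By subunit, the ratios were much alike. The large subunit, which forms peptide bonds, had 51 genes with a median log2 ratio of -0.29, 38 of them below 0. The small subunit, which reads the messenger RNA, had 27 genes with a median of -0.31, 20 of them below 0. Mrps18a and Mrps30 were placed with the large subunit, where their proteins reside despite their names. Mrps36 was kept with the small subunit by name, although its protein is now known as a part of the 2-oxoglutarate dehydrogenase complex, and its log2 ratio was -0.32 (694 and 462 counts). All 3 genes past 2-fold belonged to the large subunit, which holds 51 of the 78 genes. Among the 30 large subunit genes with bacterial homologs, the median was -0.20, and among the 21 without it was -0.36. Mrps18a was counted among those without, although it resembles bacterial S18. In the small subunit the order was the other way, with -0.31 for 15 genes with bacterial homologs and -0.28 for 12 without. With the GC and length trends described below removed, the 2 large subunit medians were -0.008 with bacterial homologs and -0.021 without.

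The stalk recruits translation factors to the large subunit. Its 3 genes were all below 0, while 49.5% of all genes were above it. The log2 ratio was -0.49 for Mrpl10 (3459 and 2052 counts), -0.51 for Mrpl11 (1843 and 1074) and -0.69 for Mrpl12. Around the exit of the peptide tunnel, where new chains meet the inner membrane, the 6 genes had a median of -0.11. Mrpl23 was at -0.55 (1606 and 912 counts) and Mrpl17 at -0.55 (3464 and 1973). Mrpl22 was at -0.13, Mrpl24 at -0.08 and Mrpl45, a membrane anchor of the ribosome, at -0.08. The counting interval of each of these last 3 genes reached 0. Mrpl24 turned to 0.22 when only curated transcripts were counted, and Mrpl47 at 1.25 stood apart from these 3 genes. With the GC and length trends described below removed, Mrpl10 was left with -0.11, Mrpl11 with -0.77 and Mrpl12 with 0.04. Mrpl23 turned to 0.37 and Mrpl17 was left with -2.15. With the longest transcript in place of the most abundant, Mrpl12 stood at -0.01 and Mrpl23 at -0.20.

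The central protuberance contacts the small subunit. Its 7 genes had a median of -0.25, with Mrpl46 at 0.21 (619 and 597 counts) and Mrpl18, the counterpart of bacterial L18, at 0.19 (1720 and 1639) above 0. Mrpl48 was at -0.06 (1776 and 1417), Mrpl40 at -0.25 (1035 and 725) and Mrps30 at -0.36 (1526 and 988). Mrpl38 was at -0.57 (4633 and 2591) and Mrpl52 was the lowest of the group. Within this single structure, the log2 ratios ran from -0.70 to 0.21. The median turned to 0.26, with 5 of 7 above 0, when the trends with GC content and length were removed.

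Mrps18a, Mrps18b and Mrps18c encode paralogs that resemble bacterial S18, each of which takes its own place in a ribosome. Mrps18a had 2662 and 1399 counts, a log2 ratio of -0.66. Mrps18b had 2926 and 1660 counts, a ratio of -0.55. Mrps18c had 1077 and 751 counts, a ratio of -0.26, and its interval (-0.39 to -0.12) did not meet those of the other two (-0.76 to -0.57 and -0.64 to -0.47). The 3 genes had TPM values of 93.5, 79.1 and 65.1 with AAV-GFP and 58.0, 53.0 and 53.5 with AAV-Wee1-AS, so that their levels lay closer together in the second library. With the GC and length trends described below removed, Mrps18c was the lowest of the 3, with -0.34 left against 0.08 for Mrps18a and -0.11 for Mrps18b.

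Inherited defects of 15 of the genes are known to cause mitochondrial disease in humans. Their median log2 ratio was -0.22, with 10 below 0. Beside Mrpl50 and Mrps22, they included Mrps34, a small subunit protein needed for its stability, at -0.61 (2678 and 1463 counts). Mrpl44, a large subunit protein with a fold like ribonuclease III, was at -0.40 (1343 and 847 counts). With the GC and length trends described below removed, Mrps34 turned to 0.26 (0.17 with the longest transcript) and Mrpl44 was left with -0.06. Mrpl58, which releases peptides from stalled ribosomes and is not on that list, was at -0.29 (1581 and 1074 counts) and turned to 0.12 when only curated transcripts were counted.

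Across all genes, the log2 ratio followed the GC content of the transcript. The family did so with a like rank coefficient, but over a narrower range of median ratios, given by GC group below. GC content was taken from the most abundant transcript of each gene that had a match in GENCODE, which gave a value for all 78 genes and for 12768 (80.5%) of the genes past the filter. The Spearman coefficient of log2 ratio with GC content was -0.68 over the 78 genes and -0.72 over the 12768. With transcript length it was 0.36 and 0.38. All these genes share the same 2 libraries, so the coefficients describe the libraries and carry no p-value. The family's median GC content was 50.5%, the same as that of all genes (50.5%), while its median transcript was shorter, at 1066 bases against 2779. Among the 78 genes, GC content also rose with mean TPM (coefficient 0.62), so the lower ratios of abundant genes and of GC-rich genes cannot be told apart here.

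When the family was divided into 3 groups of 26 by GC content, the ratio was lower in each group than in the one before. With a GC content of 39.6% to 48.4%, 14 of 26 genes were above 0 and the median log2 ratio was 0.01, while all 4496 genes in that range of GC content had a median of 0.91. From 48.8% to 52.5%, 5 of 26 were above 0 and the median was -0.22, against -0.05 for 2565 genes. From 52.6% to 60.6%, 1 of 26 was above 0 and the median was -0.59, against -0.54 for 4420 genes. The median of the GC-rich members was thus close to that of other genes of their GC content, and the median of the GC-poor members was below it. Of the GC-poor members, Mrpl1 (1.62), Mrpl47 (1.25) and Mrpl50 (1.05) lay above the 0.91 of their range. The single GC-rich gene above 0 was Mrpl46.

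The trends with GC content and length were removed by lowess fits over all 12768 genes. The family's median was then -0.03, with 36 genes above 0 and 42 below, beside a median of -0.04 for all genes. None of the 78 remained more than 2-fold higher, where 5.15% of all genes did. For Mrpl1 the trend amounted to 1.33 and left 0.28, for Mrpl50 it amounted to 1.07 and left -0.02, and for Mrps22 it amounted to 0.51 and left 0.28. Mrpl47 had the highest value left, 0.72, followed by Mrpl46 with 0.68. At the low end, Mrpl54 was left with -0.01, Mrpl4 with -0.05, Mrps12 with 0.04 and Mrpl12 with 0.04. The direction of Mrpl50, Mrps12 and Mrpl12 thus turned with this step.

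After removal of the trends, 6 genes were more than 2-fold lower, all of them in the GC-poor group. The share of all genes was 7.05%, near that of the family. With the longest transcript of each gene, 9 members and 8.77% of all genes were more than 2-fold lower. Mrps25 was then inside the limit at -0.97, while Mrpl13 (-1.63), Mrpl15 (-1.33), Mrpl16 (-1.18) and Mrps17 (-1.12) were past it. Of these, Mrpl13 and Mrpl16 are in the middle GC group. The 6 genes past the limit on the most abundant transcript, whose values follow, were singled out after their values were seen. Mrpl17 was left with -2.15, Mrps14 with -1.61, Mrpl57 with -1.58, Mrps25 with -1.15, Mrps30 with -1.13 and Mrpl32 with -1.03. Before removal, they stood at -0.55, -0.31, -0.49, 0.11, -0.36 and -0.13, and the trend for transcripts of their GC content and length lay between 0.77 and 1.61. The median left in the GC-poor group was -0.68, against -0.06 in the middle group and 0.11 in the GC-rich group, so that the value left rose with GC content within the family (coefficient 0.60).

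**Figure D3:**
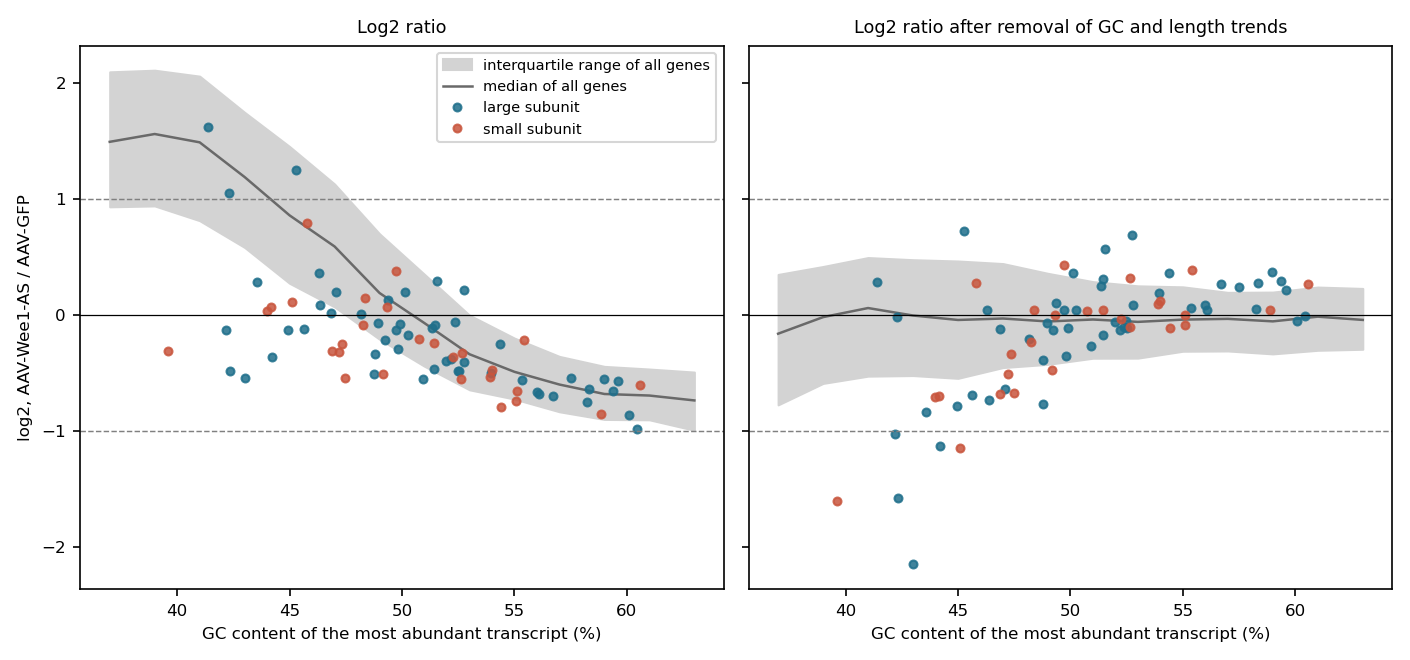
Log2 ratio (AAV-Wee1-AS over AAV-GFP) against GC content of the most abundant transcript (percent), before (left) and after (right) removal of the GC content and length trends. Points are the 78 genes by subunit, the grey line and band are the median and interquartile range of all genes in bins of GC content 2 points wide, and dashed lines mark 2-fold. In the right panel, the median of the 26 GC-poor members is -0.68 and that of the 26 GC-rich members is 0.11, while Mrpl1 (0.28) and Mrpl47 (0.72) are GC-poor members above 0.

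The table held 202 transcripts of the family, 176 of which had at least 10 counts in a library. For 37 genes 1 transcript was listed, and for 41 there were several. The leading transcript took over 80% of the counts in both libraries for 28 of these 41 genes and was the same in both libraries for all but 3, Mrpl39, Mrpl55 and Mrps10. Its share shifted by more than 20 points in 2 genes, which were named after their values were seen. In Mrps2, it held 40.0% of the counts with AAV-GFP and 86.2% with AAV-Wee1-AS. The gene as a whole was nearly level, at 0.07 (2045 and 1788 counts), while its leading transcript had 819 and 1542 counts. In Mrpl2, the leading share was 68.6% and 91.0%. In Mrpl1, the leading transcript held 98.5% and 89.6%, and its own log2 ratio was 1.43. Counts of transcripts that share most of their sequence are estimates that divide the same reads.

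Several of the genes begin close to a neighbor. A protein-coding gene in the opposite direction began within 1000 bases of the start of 23 of the 78 genes (29.5%), against 11.3% of 13349 genes past the filter. These neighbors had a median log2 ratio of -0.42, with 17 of 23 below 0, and the 23 members had a median of -0.37 against -0.29 for the other 55. Mrpl50 begins 83 bases from Zfp189, a zinc finger gene with 44 and 230 counts and a log2 ratio of 2.59. Mrps12 begins 172 bases from Sars2, the mitochondrial seryl-tRNA synthetase, with 987 and 486 counts and a ratio of -0.76. Mrpl54 begins 26 bases from Apba3, which had 2026 and 1069 counts and a ratio of -0.66. In these 3 pairs both genes lay on the same side of 0, as in 17 of the 23. Among the others, Mrpl44 (-0.40) is paired with Wdfy1 (0.88), Mrps5 (-0.31) with Zfp661 (1.86) and Mrpl49 (0.12) with Fau (-0.87). Most of the members and most of the neighbors were below 0, which by itself places many pairs on the same side. The share of same-side pairs over all genes was not taken.

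The proteins made by this ribosome work with imported partners, so other gene lists of the same machinery were set beside the family. Their counts stand beside 49.5% of all genes above 0 and 22.2% more than 2-fold higher. The 79 cytosolic ribosomal protein genes had a median log2 ratio of -0.50, with 65 below 0, from Rplp1 at -1.03 to Rpl5 at 1.33. The 74 nuclear genes of oxidative phosphorylation had a median of -0.55, with 65 below 0, from Ndufs7 at -0.92 to Ndufs1 at 1.02. The family at -0.31 thus lay between these lists and all genes, and its share below 0 (58 of 78) was nearer to theirs. With the GC and length trends removed, the 3 medians were 0.01 for the cytosolic ribosomal proteins, -0.06 for oxidative phosphorylation and -0.03 for the family. The 13 protein-coding genes of the mitochondrial genome, the products of which this ribosome makes, had a median of 1.14 with 10 above 0, from ND3 at -0.77 to ND4L at 1.91, and 7 were past 2-fold. Their base composition was not matched, so they have no value after removal of the trends.

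Of the 5 ribosomal proteins with other names, Ptcd3 (mS39), a small subunit protein, had 408 and 1295 counts, a log2 ratio of 1.92 (1.77 to 2.09). The other 4, Dap3, Chchd1, Aurkaip1 and Gadd45gip1, ranged from -0.64 to -0.14. Genes for assembly and ribosomal RNA modification (25 genes) had a median of -0.31, like the family, with 9 above 0. Fastkd2 (2.21; 158 and 616 counts), Gtpbp10 (2.11; 140 and 508) and Mterf3 (1.17; 197 and 372), all factors of large subunit assembly or mitochondrial RNA metabolism, were past 2-fold. The lowest was Mtg1, a GTPase of assembly, at -0.76.

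Of the 16 translation factors in the table, 11 were above 0 and 5 were more than 2-fold higher (against 22.2% of all genes), with a median of 0.20. These 5 were the initiation factor Mtif2 (2.57; 157 and 784 counts), the elongation factor 4 homolog Guf1 (2.13; 131 and 483), the release factors Mtrf1l (1.37; 72 and 158) and Mtrf1 (1.16; 142 and 266), and the mRNA-binding Lrpprc (1.32; 2469 and 5144). The elongation factor Tufm, the most abundant by TPM (153.6 and 107.6), was at -0.49, and its exchange factor Tsfm was the lowest at -0.85. The 20 genes for charging mitochondrial transfer RNAs had a median of -0.30 with 8 above 0, from Lars2 at -0.94 to Rars2 at 1.34. With the trends removed, the medians were 0.15 for the translation factors, 0.11 for the assembly genes and -0.07 for the charging of transfer RNAs. Among the last, Lars2 was left with -1.01 and Mars2 (-0.36 before removal) with -1.83. Both were then more than 2-fold lower, as were 7.05% of all genes. Mtif2 was left with 1.65 and Fastkd2 with 1.00. The others that had been past 2-fold were back inside it, with 0.93 left for Mtrf1l, 0.88 for Ptcd3, 0.68 for Gtpbp10, 0.65 for Guf1, 0.55 for Lrpprc, 0.54 for Mtrf1, 0.53 for Rars2 and 0.19 for Mterf3.

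Of the 10 genes for transcription and upkeep of mitochondrial DNA, 8 were above 0, with a median of 1.11. Tfam, which packages mitochondrial DNA, was at 1.00 (1107 and 1840 counts), Tfb2m at 1.67 (301 and 801), Mterf2 at 1.34 (55 and 119), Ssbp1 at 1.25 (295 and 586) and Tefm at 1.23 (179 and 351). Mterf1a had 3 and 18 counts, a ratio of 2.20 (1.07 to 5.25). Polrmt, the mitochondrial RNA polymerase, was the lowest at -0.53 (1369 and 790). With the trends removed, the median was 0.42 over the 9 of these genes that had a GC value. Tefm was left with 0.59, Tfb2m with 0.58, Mterf2 with 0.42, Ssbp1 with 0.12 and Tfam with 0.02. Among 11 nuclear regulators of mitochondrial genes, 7 were above 0 and the median was 0.95. Gabpa, the DNA-binding subunit of the ETS factor whose letters are given above, was at 2.54 (299 and 1453 counts), and Gabpb2 was at 2.28 (202 and 826). Sp1 at 1.46 (589 and 1357) and the coactivator Ppargc1a at 1.31 (103 and 216) were also past 2-fold. Nrf1 was at -0.12 (362 and 278 counts), Yy1 at 0.95 (1319 and 2121), and Esrra was the lowest at -0.77 (1944 and 951). With the trends removed, the median of the regulators was -0.05. Gabpa was left with 0.96, Gabpb2 with 0.92, Yy1 with 0.53 and Esrra with -0.05, while Sp1 (-0.18) and Ppargc1a (-0.41) turned below 0.

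**Figure D4:**
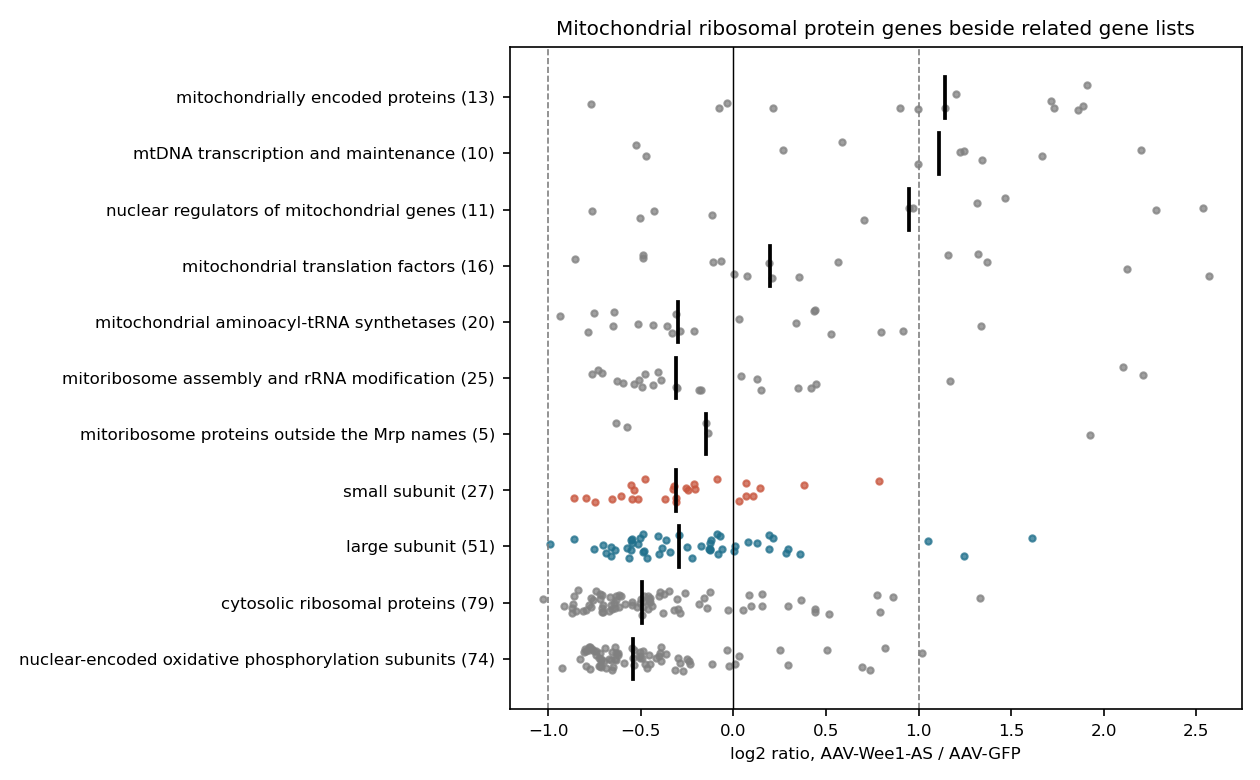
Log2 ratio (AAV-Wee1-AS over AAV-GFP) for each gene (points) of the 2 ribosomal subunits and of related lists, with the number of genes in brackets, the median of each list as a black bar and dashed lines at 2-fold. The 2 subunits, at -0.31 and -0.29, lie above the cytosolic ribosomal proteins (-0.50) and below the translation factors (0.20).

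All 8 hepatocyte markers, among them Alb and Ttr, were present, with a summed TPM of 84656 with AAV-GFP and 95170 with AAV-Wee1-AS. Of these, 4 were higher and 4 lower, with Alb at 0.53 and Ttr at -0.62, so the sum follows Alb. Summed TPM with AAV-GFP and AAV-Wee1-AS was 372.1 and 285.9 for the 6 markers of Kupffer cells, 126.5 and 104.0 for the 5 of endothelial cells, 187.7 and 155.4 for the 6 of stellate cells and 44.1 and 37.9 for the 5 of cholangiocytes. These lists were split, with 3 higher and 3 lower for Kupffer cells (Marco 1.60, Cd68 -0.88), 2 and 3 for endothelial cells, 3 and 3 for stellate cells (Lrat 1.46, Col1a1 -2.32) and 2 and 3 for cholangiocytes. The 4 erythroid markers, all lower with AAV-Wee1-AS, summed to 2037 and 1101. The 5 markers of T, B and NK cells summed to under 5 TPM in each library. Defining markers of fat (Plin1, Lep), muscle (Ckm, Myh6, Acta1) and exocrine pancreas (Cpa1, Pnlip, Prss2) were at 0 in both libraries. The remaining members of these lists were Adipoq with 2 and 2 counts, Tnnt2 with 8 and 13, and Cela1 with 616 and 741. The part of these shifts in the family's ratios was not tested. In bulk tissue, fewer cells of a type and less RNA per cell cannot be told apart.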

How the data were processed

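RNA-seq of poly-A RNA was made by the submitters from 1 liver library per group with a stranded kit on an Illumina NovaSeq. Per the labels' processing notes, Trimmomatic 0.38, HISAT2 2.1.0, SAMtools 1.9 and StringTie 2.1.3b were used with build mm10, in roles that are not given in the sources used here beyond these names. The authors deposited 1 table of 129299 transcripts with an estimated count, an FPKM value and a TPM value for each library. The deposited estimated counts equal FPKM multiplied by length and a constant, rounded up, for 97.3% of transcripts in each library (within 0.001), so they are whole numbers made from abundance estimates and not tallies of reads. The deposited TPM sums to the same total in each library, and the deposited FPKM is scaled to length and library.

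Counts, FPKM and TPM were summed per gene symbol, and counts were scaled by TMM (edgeR 4.0.16, R 4.3.3) over all 45777 symbols. The log2 ratio used a prior count of 2, and genes needed 10 counts or more in either library. With 1 library per group, no test was run, and fold limits of 2 and 0.5 were used. GC content came from GENCODE M21 transcripts matched by RefSeq accession, lengths from the table, and trends were removed by lowess in turn (span 0.3, 5 cycles). Promoters came from RefSeq (GRCm38.p6). Python 3.11.15 with scipy 1.17.1 and statsmodels 0.14.6 was used. The ratio, its interval and the removal of trends were tried on simulated independent Poisson counts. These had either no trend or a linear trend with GC content and log2 length. Such counts differ from the estimated counts used here, so the trial does not show how the steps behave on the latter. The genes and lists were chosen with earlier results of these data known. Named genes were those past 2-fold, the 8 highest and 8 lowest ratios (where either library reached 100 counts), the 5 highest and 5 lowest by mean TPM, the genes of the stalk, tunnel, protuberance and Mrps18 lists, and Mrps12, Mrps22, Mrps34, Mrpl44 and Mrpl58. Of every other list, the rule took genes past 2-fold and the highest and lowest ratio, and further genes were named for their known role or after their values were seen, and these were not followed through every alternative. Pseudogenes of the family (5 symbols) were left out. Alternatives were other scalings (library totals, DESeq2 1.42.0 size factors, upper quartile), other filters and prior counts, TPM and FPKM, curated transcripts only, transcripts in place of genes, and removal of the trends. The design text speaks of 4 liver samples, and 2 libraries were analysed here.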

Additional observations from a re-analysis of the deposited data

How the results depend on the processing

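No replicate was left out, since each group has 1 library. No paired analysis was possible for the same reason. The spread between animals is unknown, and the lowest count was 143. With DESeq2 size factors, other filters, a prior count of 0.5 or curated transcripts only, 3 genes were still more than 2-fold higher (20.9% to 23.5% of all genes), and with library totals, upper quartile scaling or TPM, 2 were (21.2%, 18.5% and 10.1%).

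With upper quartile scaling, which lowered the median of all genes by -0.20, the median was -0.52 for the family and -0.50 for the large subunit, 9 genes were above 0 against 20 as reported, and 4 were more than 2-fold lower, as were 14.1% of all genes. Of the 40 genes that the naming rule took from the family, Mrpl18, Mrpl19 and Mrps25 changed sign under it, Mrpl24 and Mrpl58 with curated transcripts only, and Mrpl24 also with TPM and a pseudocount of 1. With library totals, DESeq2 size factors or TPM with a pseudocount of 1, 1 gene was more than 2-fold lower, against 0 as reported, beside 9.76%, 9.13% and 2.76% of all genes. With FPKM and a pseudocount of 1, 1 gene was more than 2-fold higher and 1 lower, beside 6.49% and 1.94% of all genes. Counting transcripts in place of genes made 18 of 176 transcripts more than 2-fold higher and 22 more than 2-fold lower, against 31.1% and 23.4% of 39605 transcripts in all. With GC content and length trends removed on the longest GENCODE transcript of each gene (15109 genes), the median was -0.15 for the family and -0.094 for the large subunit, 0 genes were more than 2-fold higher and 9 more than 2-fold lower, beside 7.15% and 8.77% of all genes. The same step on the most abundant transcript was chosen after seeing the data. It gave medians of -0.031 for the family, -0.021 for the large subunit and -0.042 for the small subunit, with 36 genes above 0, 0 more than 2-fold higher and 6 more than 2-fold lower beside 5.15% and 7.05% of all genes, and Mrpl50 reversed to -0.021. Of the same 40 genes, 12 changed sign on the longest transcript and 16 on the most abundant.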
